A study of Mus musculus with 6 samples.

Results

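The genes described here encode glucose transporters and the machinery that moves the insulin-responsive transporter GLUT4 to the muscle cell surface. They are 10 genes (Slc2a4, Slc2a1, Tbc1d1, Tbc1d4, Rab10, Rab8a, Lnpep, Sort1, Stx4a and Vamp2) out of 33641 gene symbols in the deposited table. They were chosen by symbol, and every transcript row carrying one of these symbols was taken, which gave 53 rows of 105129. Of these rows, 48 were above 0 in at least 1 library, 32 were above 0 in all 6 libraries and 5 were at 0 throughout.

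Poly-A selected RNA of whole quadriceps muscle was sequenced from 6 male littermate mice aged 4 months, born to heterozygous parents and harvested at about 4 hours after lights on. In 3 mice both copies of the glucocorticoid receptor gene carried the rs6190 allele, which copies a human coding variant (homozygous), and in 3 mice both copies carried the reference allele (WT). The comparison asks which transcripts differ with that allele. Values are TPM, an abundance divided by transcript length and scaled to the same total in every library, so that levels of different genes can be compared.

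GLUT4 carries glucose into muscle fibres and is held in intracellular storage vesicles at rest. Insulin and contraction lead to phosphorylation of the Rab GTPase-activating proteins TBC1D4 and TBC1D1, which then restrain their Rab GTPases less, and the vesicles move to the plasma membrane and fuse there through SNARE proteins. Glucocorticoids are known to lower insulin-stimulated glucose uptake in muscle.

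Tbc1d1 was the gene of the 10 with the largest difference between the genotypes, at 39.5 ± 13.7 TPM (SD, n = 3) in homozygous and 12.1 ± 4.73 TPM (SD, n = 3) in WT muscle, and 1 of its isoforms passed the test. Slc2a4, which encodes GLUT4, was the most abundant of the 10 and averaged 224 ± 24.9 TPM (SD, n = 3) in homozygous and 225 ± 35.3 TPM (SD, n = 3) in WT muscle. Slc2a1, the transporter of basal glucose uptake, and Vamp2, the SNARE of the vesicle, were higher in all 3 homozygous libraries than in any WT library without passing the test. The groups overlapped for the other 6 gene sums, as they did for Slc2a4.

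No gene sum passed an adjusted p of 0.05 in limma (a linear model across all genes with Benjamini-Hochberg adjustment): 0 of the 10 did, and 0 of 11099 tested genes (0%). At an unadjusted limma p under 0.05, 3 of the 10 were higher in homozygous muscle, where 23.7% of all tested genes were, and 0 of the 10 were lower, where 0.55% of all genes were. The homozygous libraries lay wholly above the WT libraries for 3 of the 10, against 34.7% of all genes, and wholly below for 0 of the 10, against 0.73%. These shares of the 10 were near those of all genes. The median log2 difference of the 10 was 0.19, homozygous minus WT on the log2(TPM + 1) scale, beside 0.26 over all tested genes.

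Most tested genes (9526 of 11099) had a log2 difference above 0 as deposited. Quantile normalization and median centring align the libraries, so they bring the median of all genes near 0 by construction (-0.007 and -0.037). Of the genes at an unadjusted limma p under 0.05, 97.7% were higher in homozygous muscle as deposited. This was 51.1% after quantile normalization and 44.2% after median centring. What the shift as deposited comes from was not tested. As deposited, 7 of the 10 genes had a log2 difference above 0 and 3 below; with either scaling Rab10, Rab8a and Stx4a moved below 0 as well. The labels number the libraries within a group without saying how litters or preparation days were divided, so p-values measure the spread between these 6 libraries.

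The 6 libraries held an estimated 15.9 to 21.6 M fragments (M, 1000000). The skeletal muscle markers Ckm, Acta1, Mb, Tnnc2 and Mylpf were all detected, at 67371 to 125578 TPM together. WT replicate 3 stood apart: the lowest correlation of every other library, across genes, was the one with it (0.951 to 0.965), its fast-fibre markers summed to 167967 TPM against 69422 to 92765 in the other 5, and genes with transcripts of at least 5000 nt lay a median of -0.48 (log2) from their mean over the 6 libraries, against -0.06 to 0.26 elsewhere. It gave the lowest value of 6 of the 10 genes and the highest of 1, Slc2a4. Slow-fibre markers summed to 1682, 9145 and 2003 TPM in homozygous replicates 1 to 3 and 1579, 1019 and 207 TPM in WT replicates 1 to 3 (9 of 9 detected). Of these 9, 6 lay wholly above in homozygous libraries, where 34.7% of all tested genes did. Nerve and Schwann cell markers summed to 76.3, 105 and 28.8 TPM in homozygous and 18.4, 25.1 and 16.1 TPM in WT replicates 1 to 3 (5 of 5 detected, none at 0). All 4 of these that were tested lay wholly above in homozygous libraries, where 34.7% of all tested genes did. In bulk muscle, fewer cells of a type and less RNA per cell cannot be told apart.

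**Figure D1:**
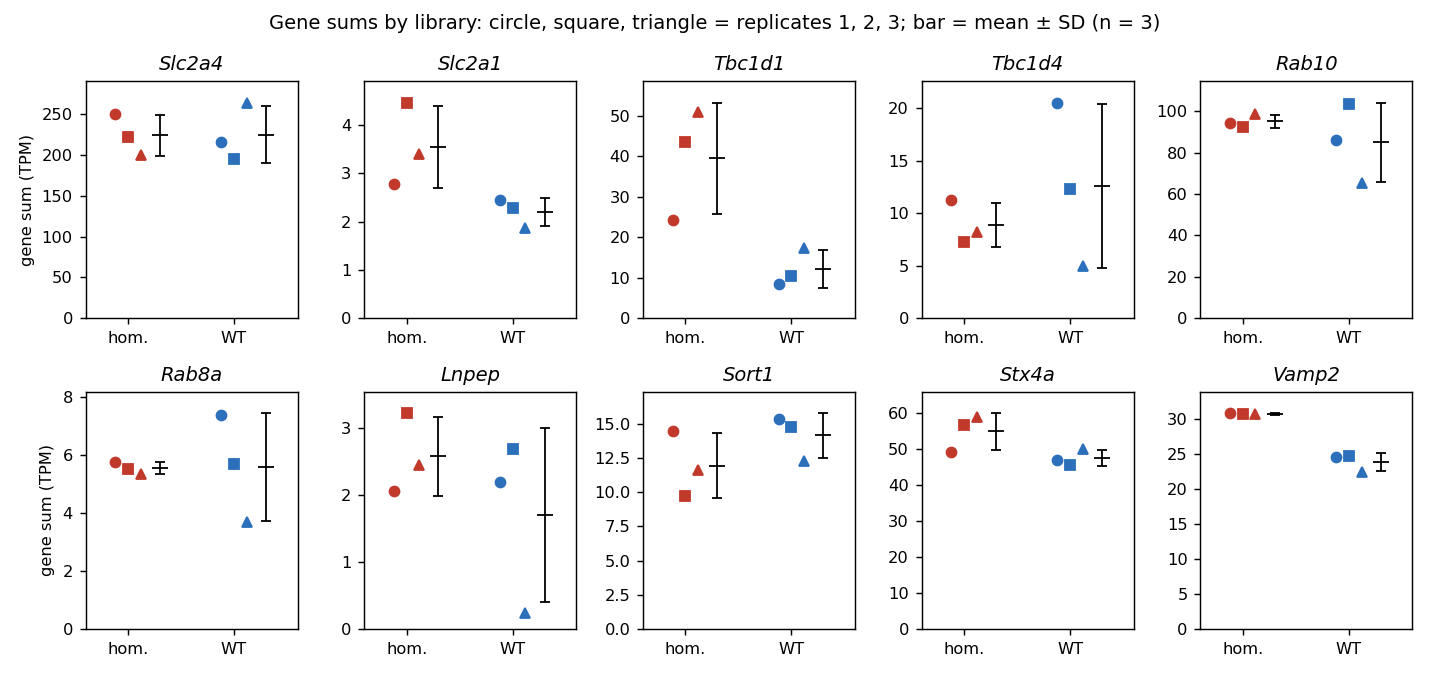
Gene sums of the 10 genes in TPM (vertical axes, each from 0) in the 3 homozygous (hom.) and 3 WT libraries. Circles, squares and triangles are replicates 1, 2 and 3, and the bar is the mean ± SD of 3 libraries. Tbc1d1 ranges from 24.3 to 50.8 TPM in homozygous and from 8.38 to 17.4 TPM in WT libraries, and WT replicate 3 is the lowest point of Lnpep at 0.235 TPM.

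Averaged over the 6 libraries, the levels ran from Slc2a4 at 225 TPM through Rab10 at 90.2, Stx4a at 51.2, Vamp2 at 27.3, Tbc1d1 at 25.8, Sort1 at 13.0, Tbc1d4 at 10.8, Rab8a at 5.55 and Slc2a1 at 2.88 to Lnpep at 2.14 TPM. The first 4 were separated from each other in every library. From Vamp2 down, each gene's range over the 6 libraries overlapped that of its neighbour in this order.

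Slc2a4 (chromosome 11, 69942539 to 69948188, minus strand, GRCm38) encodes GLUT4, the transporter that insulin moves to the surface of muscle and fat cells. Its sum was 250, 222 and 200 TPM in homozygous replicates 1 to 3 and 215, 196 and 264 TPM in WT replicates 1 to 3. The groups overlapped, and the highest library was WT replicate 3. The log2 difference was -0.0017 with a standard error of 0.16 (limma, adjusted p = 0.995).

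Most of the Slc2a4 signal came from Slc2a4-201, the full-length coding isoform, at 211, 185 and 171 TPM in homozygous and 189, 172 and 240 TPM in WT libraries. Its share of the gene was 84.6 ± 0.93% (SD, n = 3) in homozygous and 88.8 ± 1.85% (SD, n = 3) in WT muscle, and the homozygous shares were all below the WT shares. That difference of -4.23 percentage points did not pass the test on shares (limma, adjusted p = 0.700). The short isoform Slc2a4-204 held 7.71 ± 1.50% (SD, n = 3) in homozygous and 5.81 ± 3.08% (SD, n = 3) in WT muscle, with overlapping groups. None of the 31-base stretches of Slc2a4-201 is absent from the other isoforms of the gene (0%), so the split between its rows rests on the quantifier's estimate.

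The 3 genes whose log2 values followed Slc2a4 most closely over the 6 libraries, among 4779 genes at a mean of at least 10 TPM, were Ndufv2 (Pearson r = 0.991), Commd1 (0.989) and Anapc13 (0.988). Ndufv2 encodes a subunit of respiratory complex I and Anapc13 a subunit of the anaphase-promoting complex. In all 120 genes exceeded 0.9, and the 6 points share each library's scaling and composition.

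Slc2a1 (chromosome 4, 119108711 to 119137983, plus strand, GRCm38) encodes GLUT1, which serves glucose uptake at rest and is abundant in endothelium and nerve sheaths. Its sum was 2.78, 4.47 and 3.40 TPM in homozygous and 2.45, 2.29 and 1.88 TPM in WT libraries. Every homozygous library was above every WT library, the nearest pair being 2.78 and 2.45 TPM. The log2 difference was 0.49 with a standard error of 0.19 (limma, adjusted p = 0.182), and 0.42 without WT replicate 3 (limma, adjusted p = 0.239). It was 0.20 after quantile normalization, 0.19 after median centring, 0.20 with the length trend removed and 0.22 with the slow-fibre score as a covariate (limma, adjusted p = 0.691, 0.701, 0.711 and 0.768). About 71 to 155 estimated fragments per library lay behind these sums.

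Other cell types express Slc2a1, endothelium and nerve sheaths among them. Endothelial markers summed to 40.1 to 47.1 TPM in homozygous and 30.1 to 42.7 TPM in WT libraries (6 of 6 detected). Of these 6, 2 lay wholly above in homozygous libraries, as did 34.7% of all tested genes. The nerve marker sums were higher in all homozygous libraries, by little in homozygous replicate 3 (28.8 TPM against 25.1 TPM in WT replicate 2). Blood markers summed to 536 to 781 TPM in homozygous and 476 to 851 TPM in WT libraries (5 of 5 detected). The part of other cell types in the Slc2a1 values was not tested.

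Of 5 Slc2a1 rows, 2 were above 0. Slc2a1-204, annotated as a target of nonsense-mediated decay, was at 1.56, 2.81 and 2.87 TPM in homozygous and 1.63, 1.69 and 1.33 TPM in WT libraries. The coding isoform Slc2a1-201 was at 1.22, 1.66 and 0.533 TPM and at 0.815, 0.595 and 0.550 TPM. Both isoforms overlapped between the groups, although their sum did not. Slc2a1-204 held 67.7 ± 14.8% (SD, n = 3) of the gene in homozygous and 70.5 ± 3.66% (SD, n = 3) in WT muscle (limma on shares, adjusted p = 0.957), and 1.3% of its 31-base stretches are its own.

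The log2 ratio of Slc2a1 to Slc2a4 within each library was -6.49, -5.63 and -5.88 in homozygous and -6.46, -6.42 and -7.14 in WT muscle. The groups overlapped, the mean difference was 0.67, and an exact two-sided permutation test over the 20 assignments of 6 libraries gave p = 0.3, where the smallest value the design allows is 0.1. The genes most like Slc2a1 over the 6 libraries, among 4780, were Tom1 (Pearson r = 0.996), Adprhl1 (0.994) and Gsto1 (0.993), and 396 genes exceeded 0.9.

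Tbc1d1 (chromosome 5, 64156305 to 64351486, plus strand, GRCm38) encodes a Rab GTPase-activating protein phosphorylated by AMPK and Akt, and is the form of this pair best known from contraction and exercise. Its sum was 24.3, 43.5 and 50.8 TPM in homozygous and 8.38, 10.5 and 17.4 TPM in WT libraries. The groups did not overlap, and homozygous replicate 1 was the lowest of its group. On the log2 scale this was a difference of 1.63 with a standard error of 0.32, which is 1.36 above the median of all genes (limma, adjusted p = 0.168). By p-value it ranked 37 of 11099 genes.

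The Tbc1d1 sum rested on 1608 to 2665 estimated fragments in homozygous and 500 to 833 in WT libraries. It was 1.37 on the log2 scale after quantile normalization, 1.29 after removing each library's trend with transcript length and 1.90 without WT replicate 3 (limma, adjusted p = 0.555, 0.585 and 0.161). With limma array weights, which give less weight to libraries that vary more, it was 2.04 and passed (limma, adjusted p = 0.0396). With these weights 810 of 11099 tested genes passed, where 0 did without them.

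The sums of slow-fibre and of nerve markers were higher in all homozygous libraries too, as given above. Homozygous replicate 2 held by far the most slow-fibre signal (9145 TPM), and homozygous replicate 1 (1682 TPM) lay near WT replicate 1 (1579 TPM). With the slow-fibre score as a covariate the Tbc1d1 difference was 1.88 (limma, adjusted p = 0.734). The part of nerve and Schwann cells was not tested.

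The Tbc1d1 isoforms differ in their first exons, in a pair of cassette exons and in where the short rows end. Isoforms 201 and 207 contain all or part of these neighbouring cassette exons, which isoforms 202, 203 and 204 skip, and isoform 203 starts at a second site further along the gene. The cassette exons are exons 12 and 13 of isoform 201, both coding, at chr5:64283967-64284125 and chr5:64284690-64284809 (GRCm38, plus strand). Together they add 279 nt to the coding sequence, 3765 nt in isoform 201 against 3486 nt in isoform 204, and leave the reading frame intact. The form with these exons is known as the longer, muscle-enriched form of TBC1D1. The exons are shown because they distinguish full-length isoform 201 from 202, 203 and 204; capitals mark the exon and lower case the 10 flanking bases of the spliced transcript on each side, from GENCODE M21.
exon 12 of Tbc1d1-201: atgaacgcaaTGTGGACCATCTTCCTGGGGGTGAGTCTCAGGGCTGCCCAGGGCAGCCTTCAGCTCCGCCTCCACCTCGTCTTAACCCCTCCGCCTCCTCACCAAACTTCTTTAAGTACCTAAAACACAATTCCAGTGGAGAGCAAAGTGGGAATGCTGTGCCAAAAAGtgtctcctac
exon 13 of Tbc1d1-201: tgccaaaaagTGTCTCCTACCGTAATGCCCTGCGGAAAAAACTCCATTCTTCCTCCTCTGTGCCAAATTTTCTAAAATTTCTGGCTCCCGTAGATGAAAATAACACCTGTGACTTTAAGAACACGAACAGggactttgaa

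Isoform 207 holds the first of these exons and part of the second, and ends there. The windows around both RefSeq start sites of the gene are printed next (RefSeq, GRCm38.p6, plus strand, 250 bases before to 50 after the start), because full-length isoforms with first exons in either part of the gene had higher means in homozygous muscle. The first, chr5:64160010-64160309, holds the first bases of isoforms 202 and 205 (64160211) and lies within the first exon of isoform 201, which begins upstream at 64159451, as does isoform 204 at 64159820. The second, chr5:64230107-64230406, holds the first bases of isoform 203 (64230399). Capitals mark the glucocorticoid receptor half-site AGAACA and the GC box GGGCGG, on either strand.
first Tbc1d1 start window: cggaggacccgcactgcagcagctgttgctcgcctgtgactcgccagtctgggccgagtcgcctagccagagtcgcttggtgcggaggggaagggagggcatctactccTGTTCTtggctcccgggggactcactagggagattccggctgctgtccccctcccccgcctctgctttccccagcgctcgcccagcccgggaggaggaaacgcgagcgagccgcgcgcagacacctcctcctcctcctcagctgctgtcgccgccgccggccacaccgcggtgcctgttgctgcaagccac
second Tbc1d1 start window: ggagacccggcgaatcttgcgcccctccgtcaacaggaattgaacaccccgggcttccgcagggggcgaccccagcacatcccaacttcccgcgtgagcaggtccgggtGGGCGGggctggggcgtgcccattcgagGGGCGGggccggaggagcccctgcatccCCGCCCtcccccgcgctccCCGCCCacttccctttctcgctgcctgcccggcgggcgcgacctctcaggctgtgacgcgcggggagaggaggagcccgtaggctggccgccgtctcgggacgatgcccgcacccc

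The first window holds 1 half-site and no GC box, and the second holds 4 GC boxes and no half-site. Half-sites occurred in 19% of 32851 windows of that length and GC boxes in 35.7%. Among the 8 windows that matched 7 of the 10 genes, the half-site was found in Tbc1d1 and Tbc1d4 and the GC box in 6. The full palindrome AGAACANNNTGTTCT was in 0 of the 8 windows and in 0.00913% of all windows, E-boxes (CANNTG) were in 4 of 8 and 72.3%, and MEF2 motifs in 0 of 8 and 1.86%. A match is a run of letters and not an observed binding site.

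**Figure D2:**
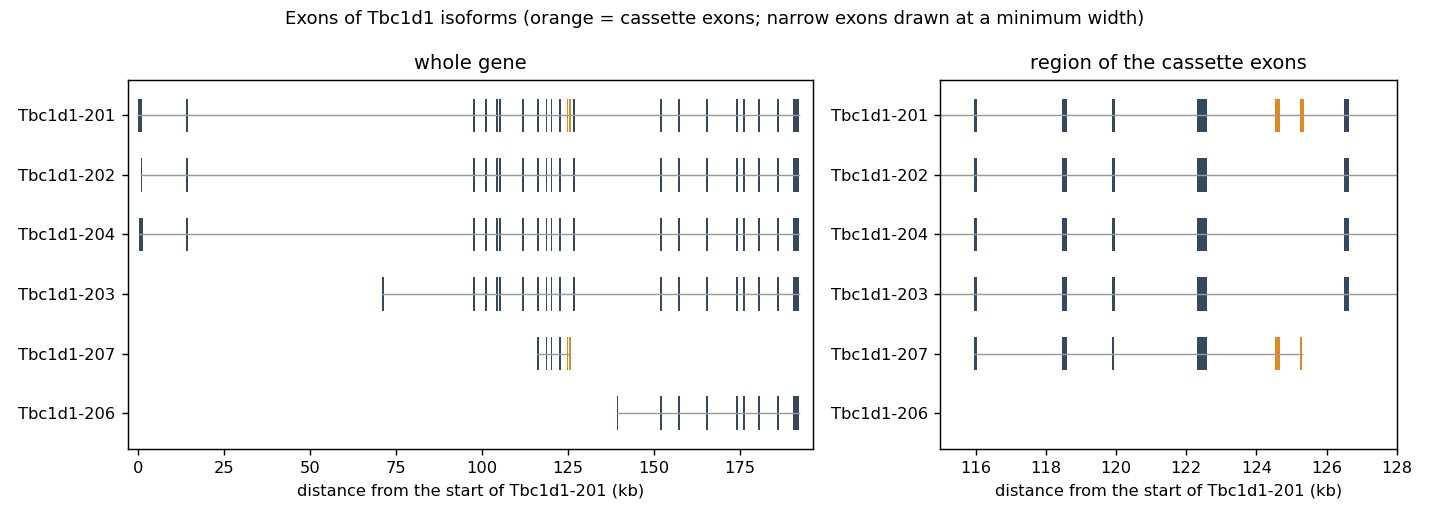
Exons of 6 Tbc1d1 isoforms by distance from the start of isoform 201 in kb, for the whole gene (left) and around the cassette exons (right). Exons are vertical bars, with narrow ones drawn at a minimum width, and the cassette exons are orange: isoform 201 has both, isoform 207 ends within the second, and isoforms 202, 203 and 204 skip both.

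Tbc1d1-204, a full-length isoform with an upstream first exon and without the cassette exons, was the only isoform of the 10 genes that passed the test. It was at 4.45, 4.22 and 4.60 TPM in homozygous libraries and at 0.199, 0.187 and 4.86e-06 TPM in WT libraries, the last being an estimate of nearly no fragments. The groups stood far apart, with a log2 difference of 2.27 and a standard error of 0.19 (limma on isoform rows, adjusted p = 0.0390).

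About 313 to 433 estimated fragments were assigned to Tbc1d1-204 in homozygous and at most 17.6 in WT libraries, but 0.6% of its 31-base stretches occur in no other isoform of the gene, so its level rests largely on how the quantifier divided shared fragments. Over 15 alternative analyses its log2 difference ran from 1.87 to 4.46 and its adjusted p from 0.0163 to 0.461, and 11 of the 15 no longer passed. Leaving out homozygous replicate 1, 2 or 3 gave limma adjusted p-values of 0.175, 0.288 and 0.188, and leaving out WT replicate 2 or 3 gave 0.0758 and 0.0738. Without WT replicate 1 it was 0.0412.

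Of the 26 isoforms of the 10 genes that reached 1 TPM in 3 libraries, 1 passed the adjusted test, as did 9 of 21165 isoforms (0.0425%). At an unadjusted limma p under 0.05, 4 of the 26 were higher in homozygous muscle (14.2% of all isoforms) and 1 was lower (1.52%). The homozygous libraries lay wholly above for 8 of the 26 (25.6% of all isoforms) and wholly below for 1 (2.11%).

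Tbc1d1-201, full length with the cassette exons, was at 3.75, 11.7 and 11.1 TPM in homozygous and 1.52, 1.94 and 0.960 TPM in WT libraries. The groups did not overlap, and homozygous replicate 1 was again the lowest of its group. Their log2 difference was 1.88 with a standard error of 0.41 (limma, adjusted p = 0.249). With 13.3% of its 31-base stretches its own, it is the best separated of the full-length isoforms.

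Tbc1d1-203, from the second start site, was at 0.995, 3.20 and 4.27 TPM in homozygous and 0.615, 1.69 and 0.142 TPM in WT libraries, with overlapping groups (log2 difference 1.05, limma, adjusted p = 0.332). Tbc1d1-207, the short row with the cassette exons that is annotated as a decay target, was at 3.60, 6.43 and 7.35 TPM and at 0.484, 0.361 and 1.12 TPM, without overlap (log2 difference 2.02, limma, adjusted p = 0.146). It is 778 nt long, and 3.6% of its 31-base stretches are its own. Its values rested on 39.95 to 66.18 estimated fragments in homozygous and 3.339 to 11.24 in WT libraries. Tbc1d1-206, a non-coding row that covers the 3′ part of the gene only, was at 11.1, 17.2 and 23.5 TPM and at 5.44, 6.28 and 15.0 TPM, and its groups overlapped through WT replicate 3 (log2 difference 0.95, limma, adjusted p = 0.329). All 5 isoforms thus had the higher mean in homozygous muscle, those with the cassette exons and those without. Isoforms 202, 205 and 208 stayed under 1 TPM in every library.

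**Figure D3:**
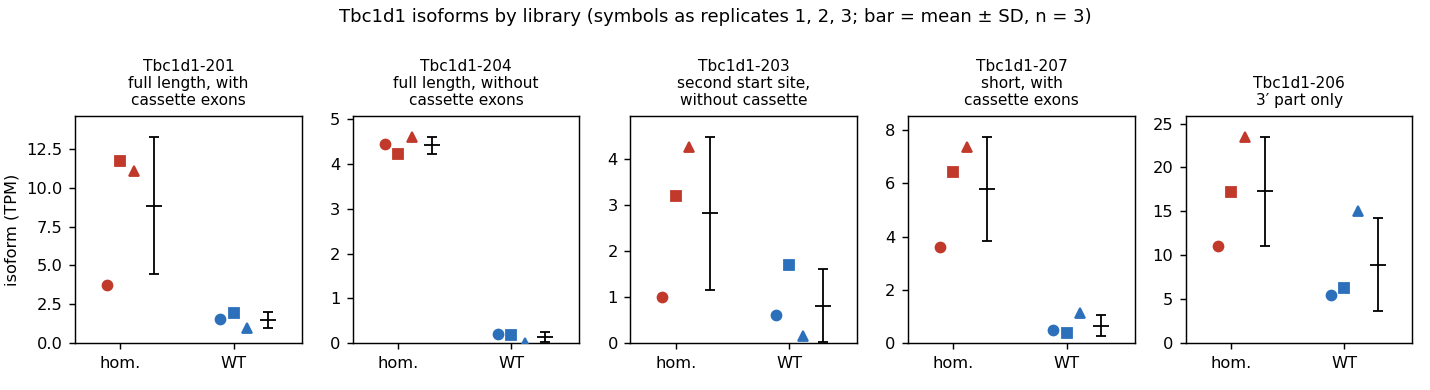
Levels of 5 Tbc1d1 isoforms in TPM (vertical axes, each from 0) in the 3 homozygous (hom.) and 3 WT libraries, with replicates as circle, square and triangle and the mean ± SD of 3 libraries as a bar. Isoform 204 sits between 4.22 and 4.60 TPM in homozygous libraries and at or below 0.199 TPM in WT libraries, whereas isoform 206 overlaps through WT replicate 3 at 15.0 TPM.

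The 4 full-length rows 201 to 204, a sum formed after their values were seen, added up to 9.31, 19.7 and 19.9 TPM in homozygous and 2.33, 3.83 and 1.25 TPM in WT libraries. Their means were 16.3 ± 6.07 and 2.47 ± 1.30 TPM (SD, n = 3), a ratio of 6.60, beside 3.27 for the sum of all rows. Rows with the cassette exons (201 and 207) averaged 14.6 ± 6.32 and 2.13 ± 0.16 TPM (SD, n = 3), and full-length rows without them (202 to 204) added up to 5.55, 7.94 and 8.88 TPM in homozygous and 0.814, 1.89 and 0.294 TPM in WT libraries. The percentage of full-length signal in isoform 201 was 40.3, 59.7 and 55.5% in homozygous and 65.1, 50.7 and 76.5% in WT libraries, and these overlapped.

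Within the gene, the 3′ row 206 took 43.8 ± 3.68% (SD, n = 3) of Tbc1d1 in homozygous and 70.4 ± 14.1% (SD, n = 3) in WT muscle, and every homozygous share was below every WT share. Isoform 204 took 12.4 ± 5.16 and 1.39 ± 1.24% (SD, n = 3), and isoform 207 took 14.7 ± 0.18 and 5.21 ± 1.56% (SD, n = 3). None of these differences in share passed the test (limma on shares, adjusted p = 0.563, 0.481 and 0.502). Row 206 covers the 3′ end of the transcript, and WT replicate 3, in which long transcripts were low, gave 86.4% of Tbc1d1 to it, against 64.9 and 60.0% in WT replicates 1 and 2. Over the 22 isoforms of the 10 genes whose shares were tested, 0 passed, as did 0 of 21279 isoforms (0%), and 4 were at an unadjusted limma p under 0.05 (8.14% of all isoforms).

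Tbc1d4 (chromosome 14, 101442360 to 101609191, minus strand, GRCm38) encodes AS160, the Akt substrate that restrains GLUT4 vesicles until insulin acts. Its sum was 11.2, 7.25 and 8.21 TPM in homozygous and 20.5, 12.3 and 4.94 TPM in WT libraries. WT libraries held both the highest and the lowest value, so the groups overlapped. On the log2 scale the difference was -0.29 with a standard error of 0.43 (limma, adjusted p = 0.657), and leaving out WT replicate 1 turned it to 0.13. It was -0.80 without WT replicate 3 and -0.95 with array weights (limma, adjusted p = 0.179 and 0.0741).

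The largest Tbc1d4 row was the retained-intron isoform Tbc1d4-208 from the 3′ part of the gene, at 7.43, 4.80 and 5.06 TPM in homozygous and 15.1, 7.65 and 4.20 TPM in WT libraries. It held 64.6 ± 2.65% (SD, n = 3) of the gene in homozygous and 73.4 ± 11.5% (SD, n = 3) in WT muscle (limma on shares, adjusted p = 0.720). The coding isoform Tbc1d4-201 was at 1.98, 0.643 and 1.66 TPM and at 2.75, 2.24 and 0.0620 TPM, and Tbc1d4-209 and Tbc1d4-205, also coding, stayed at or below 2.15 TPM. When only coding rows were summed, an analysis added after the values were seen, the Tbc1d4 log2 difference was 0.077 (limma, adjusted p = 0.912). This split too rests largely on the quantifier's estimate: 3.6% of the 31-base stretches of Tbc1d4-208 and 4.9% of those of Tbc1d4-201 are their own.

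The log2 ratio of Tbc1d1 to Tbc1d4 within each library was 1.11, 2.59 and 2.63 in homozygous and -1.29, -0.24 and 1.82 in WT muscle. WT replicate 3 exceeded homozygous replicate 1, so the groups overlapped. The mean difference was 2.01 (exact two-sided permutation test, p = 0.2, smallest possible 0.1). Leaving out WT replicate 3 gave 2.87 (exact permutation test over 10 assignments, p = 0.1, the smallest it can give). That library had made the groups overlap, so their separation followed from its removal and is no further evidence. Leaving out any other single library gave 1.32 to 2.51 (exact permutation tests over 10 assignments, p = 0.2 to 0.3).

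Rab10 and Rab8a encode the GTPases on GLUT4 vesicles that these proteins act on, Rab10 mainly in fat cells and Rab8a in muscle cells. Rab10 (chromosome 12, 3247428 to 3309969, minus strand, GRCm38), with a single row, was at 94.5, 92.3 and 98.7 TPM in homozygous and 86.4, 103.6 and 65.4 TPM in WT libraries. The homozygous libraries were close together and lay inside the WT range (log2 difference 0.18, SE 0.18, limma, adjusted p = 0.496). The difference was 0.0076 without WT replicate 3 and 0.34 without WT replicate 2 (limma, adjusted p = 0.974 and 0.227).

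Rab8a (chromosome 8, 72161200 to 72183904, plus strand, GRCm38) was at 5.74, 5.51 and 5.33 TPM in homozygous and 7.37, 5.69 and 3.67 TPM in WT libraries (log2 difference 0.03, SE 0.22, limma, adjusted p = 0.935). Its coding isoform Rab8a-201 was at 2.20, 2.86 and 2.29 TPM and at 1.71, 1.92 and 1.29 TPM, without overlap (log2 difference 0.39, limma, adjusted p = 0.374). The retained-intron row Rab8a-202 made up 55.6 ± 6.99% (SD, n = 3) of the gene's TPM in homozygous and 64.2 ± 2.48% (SD, n = 3) in WT muscle. That row is 542 nt long, against 4550 nt for Rab8a-201. It rested on 14.46 to 28.03 estimated fragments per library, and Rab8a-201 on 90.28 to 178.5. The separation of the coding isoform was thus not seen in the gene sum.

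Lnpep (chromosome 17, 17521410 to 17625050, minus strand, GRCm38) encodes IRAP, the aminopeptidase that travels in GLUT4 vesicles as their other main cargo. Its single row was at 2.06, 3.22 and 2.45 TPM in homozygous and 2.19, 2.68 and 0.235 TPM in WT libraries. The low value of WT replicate 3 rested on 44.5 estimated fragments, against 414 to 539 in the other libraries, and the Lnpep transcript is 12052 nt long. The log2 difference was 0.54 with a standard error of 0.39 (limma, adjusted p = 0.378), and 0.050 without WT replicate 3 (limma, adjusted p = 0.880). It was 0.84 without WT replicate 2.

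Sort1 (chromosome 3, 108284082 to 108361511, plus strand, GRCm38) encodes sortilin, a sorting receptor that helps form the GLUT4 storage compartment. Its sum was 14.5, 9.74 and 11.6 TPM in homozygous and 15.3, 14.8 and 12.3 TPM in WT libraries. The groups overlapped (log2 difference -0.24, SE 0.17, limma, adjusted p = 0.387). The difference was -0.11 without homozygous replicate 2, -0.37 without homozygous replicate 1 and -0.54 after median centring.

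The estimates of the Sort1 rows differed in direction. Of their 31-base stretches, 1.4% of Sort1-201 and 13.4% of Sort1-202 occur in no other isoform of the gene. The split between these rows therefore rests largely on the quantifier's estimate. The coding isoform Sort1-201 was at 9.88, 8.83 and 9.24 TPM in homozygous and 9.84, 10.1 and 3.92 TPM in WT libraries, with overlap. Sort1-202, a retained-intron row at the 3′ end of the gene (3 exons, 5193 nt), was at 2.70, 0.912 and 1.98 TPM and at 5.32, 4.47 and 8.19 TPM, and all homozygous libraries were below all WT libraries. Its log2 difference was -1.30 with a standard error of 0.32 (limma, adjusted p = 0.263), and it was the 1 isoform of the 26 at an unadjusted p under 0.05 in that direction. It held 15.0 ± 4.96% (SD, n = 3) of Sort1 in homozygous and 43.8 ± 19.8% (SD, n = 3) in WT muscle (limma on shares, adjusted p = 0.571), with 66.6% in WT replicate 3. The log2 difference of the coding rows alone was 0.36, opposite in sign to that of the gene sum (limma, adjusted p = 0.432).

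**Figure D4:**
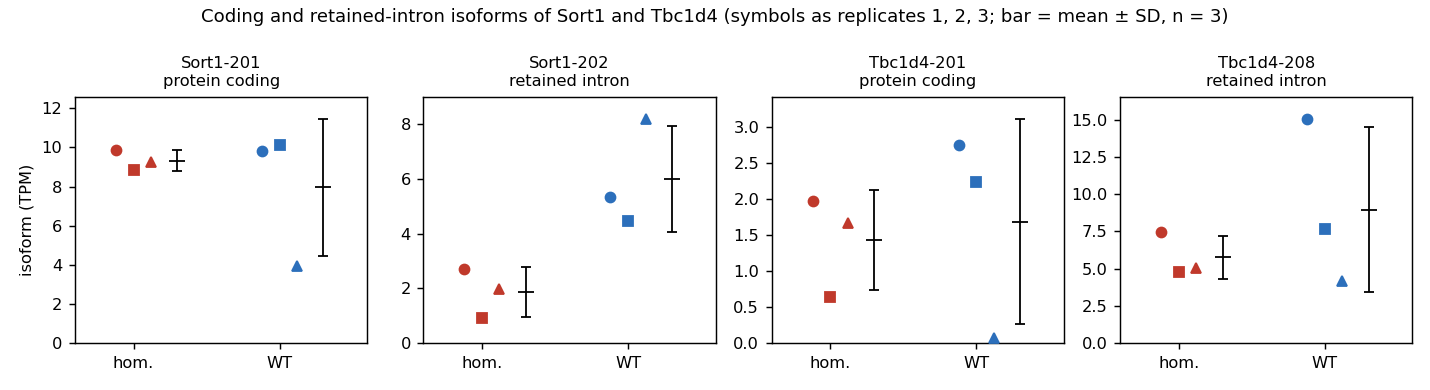
Coding and retained-intron isoforms of Sort1 and Tbc1d4 in TPM (vertical axes, each from 0) in the 3 homozygous (hom.) and 3 WT libraries, with replicates as circle, square and triangle and the mean ± SD of 3 libraries as a bar. Sort1-202 lies between 0.912 and 2.70 TPM in homozygous and between 4.47 and 8.19 TPM in WT libraries, and WT replicate 3 is the lowest point of both coding isoforms.

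Stx4a (chromosome 7, 127824294 to 127849019, plus strand, GRCm38) encodes syntaxin 4, the SNARE of the plasma membrane that receives GLUT4 vesicles. Its sum was 49.2, 56.6 and 58.8 TPM in homozygous and 47.0, 45.6 and 50.1 TPM in WT libraries, and homozygous replicate 1 lay inside the WT range. Their log2 difference was 0.20 with a standard error of 0.13 (limma, adjusted p = 0.320). The main coding isoform Stx4a-201 was at 34.0, 42.2 and 41.7 TPM and at 33.1, 31.2 and 26.4 TPM, without overlap (log2 difference 0.37, limma, adjusted p = 0.319). Stx4a-202, which has a coding sequence of the same length (894 nt), and the retained-intron row Stx4a-207 overlapped between the groups. Of the 31-base stretches, 14.3% of Stx4a-201 and 7.9% of Stx4a-202 occur in no other isoform of the gene.

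Vamp2 (chromosome 11, 69088490 to 69092384, plus strand, GRCm38) encodes the SNARE of the GLUT4 vesicle itself. Its sum was 30.8, 30.7 and 30.7 TPM in homozygous and 24.6, 24.8 and 22.4 TPM in WT libraries. The homozygous libraries were nearly equal and all above the WT libraries, with means of 30.7 ± 0.0893 and 23.9 ± 1.30 TPM (SD, n = 3). The log2 difference was 0.35 with a standard error of 0.12 (limma, adjusted p = 0.171), only 0.085 above the median of all genes.

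After quantile normalization the Vamp2 difference was 0.07 and after median centring 0.05. Both coding rows shared the separation: Vamp2-201 was at 24.7, 24.6 and 23.5 TPM in homozygous and 20.3, 20.3 and 18.6 TPM in WT libraries, and Vamp2-202 at 3.13, 4.39 and 3.57 TPM and at 2.20, 2.52 and 0.947 TPM (limma, adjusted p = 0.325 and 0.301). The share of Vamp2-201 was 78.9 ± 2.07% (SD, n = 3) in homozygous and 82.5 ± 0.66% (SD, n = 3) in WT muscle (limma on shares, adjusted p = 0.774).

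**Figure D5:**
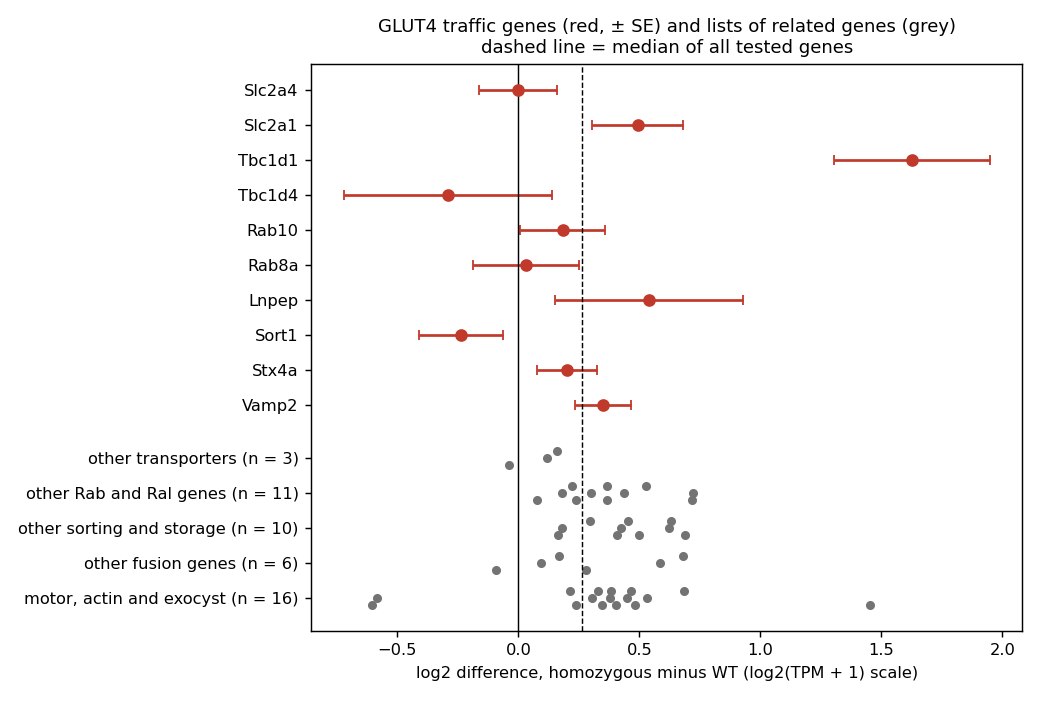
Log2 differences, homozygous minus WT on the log2(TPM + 1) scale (horizontal axis), for the 10 genes (red, ± standard error) and for 46 other genes of transport and vesicle traffic in 5 lists (grey). The solid line marks 0 and the dashed line the median of all tested genes, 0.26. Tbc1d1 at 1.63 is the farthest right of the 10, and 42 of the 46 grey points lie above 0.

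A wider set of 54 genes of the same pathway, in 5 lists by role, was read from the same fit. One listed name, Stxbp3a, is an older symbol of Stxbp3 and had no row of its own, and 46 of the other 53 were tested. None of the 46 passed in limma (0 at an adjusted p under 0.05), 16 were higher and 2 lower at an unadjusted p under 0.05 (23.7% and 0.55% of all tested genes), and the groups were apart for 23 above and 1 below (34.7% and 0.73% of all tested genes). Their median log2 difference was 0.37, beside 0.19 for the 10 genes and 0.26 for all genes.

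Of 8 other glucose transporters, 3 were tested and none was at an unadjusted p under 0.05. Slc2a8, an intracellular transporter, had a log2 difference of 0.16 (limma, adjusted p = 0.522), Slc2a12, a second insulin-responsive transporter, 0.12 (0.635), and Slc2a3, the transporter of neurons and blood cells, -0.038 (0.939). Slc2a3 was at 7.02, 2.90 and 4.68 TPM in homozygous and 6.73, 4.72 and 3.35 TPM in WT libraries, above Slc2a1 in 5 of the 6. The remaining 5 stayed at or below 0.458 TPM.

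Among 11 other Rab and Ral genes, all had a log2 difference above 0, as did 9526 of 11099 tested genes, and 3 were higher at an unadjusted limma p under 0.05 (23.7% of all tested genes). Ralgapa2, a subunit of the RalGAP complex, was at 2.23, 2.83 and 3.32 TPM in homozygous and 1.93, 1.50 and 0.629 TPM in WT libraries (log2 difference 0.72, adjusted p = 0.171). Dennd4c, the exchange factor of Rab10, was at 5.70, 6.45 and 6.62 TPM and at 4.31, 4.62 and 1.86 TPM (0.72, adjusted p = 0.178). In both, WT replicate 3 was the lowest library.

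Among 10 tested genes of sorting and storage, all had a log2 difference above 0 and 4 were higher at an unadjusted limma p under 0.05, beside the same 9526 of 11099 and 23.7% of all tested genes. Aspscr1, which encodes TUG, the tether that holds GLUT4 vesicles inside the cell, was at 24.7, 30.9 and 36.5 TPM in homozygous and 20.3, 17.3 and 20.7 TPM in WT libraries (log2 difference 0.62, SE 0.17, adjusted p = 0.168). Its groups were apart, and WT replicate 3 was here the highest of the WT libraries. Cltc, the clathrin heavy chain, was at 54.2, 61.4 and 53.5 TPM and at 42.5, 49.3 and 32.5 TPM (0.45, adjusted p = 0.180).

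Of 6 tested genes of vesicle fusion, 2 were higher at an unadjusted limma p under 0.05 (23.7% of all tested genes). Stxbp5, which encodes tomosyn, had a log2 difference of 0.59 (adjusted p = 0.168) and Snap23, the third SNARE of the fusion complex, 0.68 (adjusted p = 0.177). Snap23 was at 20.9, 22.0 and 17.9 TPM in homozygous and 16.2, 14.1 and 7.91 TPM in WT libraries. Vamp8 was the 1 gene of this list below 0, at -0.09 (adjusted p = 0.679).

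Among 16 genes of motors, actin control and the exocyst, 7 were higher and 2 lower at an unadjusted limma p under 0.05 (23.7% and 0.55% of all tested genes). Exoc8, an exocyst subunit, had a difference of 0.46 (adjusted p = 0.176). Exoc7, another exocyst subunit, went the other way, at 48.7, 35.4 and 48.2 TPM in homozygous and 50.8, 75.6 and 74.7 TPM in WT libraries, without overlap (-0.58, SE 0.20, adjusted p = 0.171). Pak1, a kinase downstream of Rac1 in insulin-driven actin remodelling, had a difference of -0.61 with overlapping groups (adjusted p = 0.198).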

How the data were processed

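Quadriceps RNA of 3 homozygous and 3 WT mice was sequenced as stranded poly-A libraries, per the labels' protocols. The authors deposited TPM, abundances divided by transcript length and scaled to one total per library, with a line for each Ensembl transcript beside the symbol of its gene, per the file headers. The submitters' processing notes name FastQC, Trimmomatic, HISAT2, kallisto and mm10, without versions or roles. All 6 columns matched a library by name. Which transcripts the TPM values were assigned to was estimated by the authors' quantifier, so isoforms that share most of their sequence can trade signal.

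TPM holds no depth. Fragments were estimated from the steps between low values of single-transcript genes: of 596 to 640 such values per library, 59.5% to 69.2% came out whole to within 0.03, where chance gives 6%. The estimates serve only to judge precision, and cover counting error only.

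Isoforms were summed per symbol and log2(TPM + 1) was tested with limma 3.58.1 in R 4.3.3 (trend, robust, genotype only) on 11099 genes, or 21165 isoforms, that reached 1 TPM in 3 or more libraries, with a Benjamini-Hochberg adjusted p under 0.05. Fold changes on this scale understate low genes. Shares were tested with limma (robust) on the arcsine of the square root, for 21279 isoforms at a mean share of 5% to 95% of genes at 1 TPM or more in all libraries. Ratios within libraries were tested with exact permutation tests. Positions and isoform classes come from GENCODE M21 (GRCm38), which 53 of the 53 rows matched without version number and 52 with it, and promoter windows from RefSeq (GRCm38.p6). The limma tests were also run on simulated data with independent noise for each gene or isoform. Those data held no shift shared by a whole library, so the check does not cover such shifts. The figures used Python 3.11.15 and matplotlib 3.10.9.

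Named were the 10 genes, their isoforms with a mean share of at least 5%, for each of 5 lists of related genes those past the threshold or else the 2 with the smallest p in each direction, and the 3 genes most correlated with Slc2a4 and with Slc2a1; Slc2a4-203 and other smaller rows are given by count. One gene that this rule names is not reported here. The 10 genes and all lists were chosen with earlier results of these data known. Alternatives were quantile normalization, median centring, leaving out mitochondrial transcripts, no filter, a pseudocount of 0.1, array weights, a slow-fibre covariate, the replicate number as a block, and leaving out each library. Removing the length trend (loess, span 0.5) and summing coding rows only were added after seeing the data. Sums of immune markers (8.18 to 38.5 TPM, mostly Lyz2) and adipocyte markers (147 to 186 TPM, mostly Fabp4) overlapped between the genotypes. Of the 5 immune markers, Cd68 was wholly above (3.34 to 4.73 against 1.08 to 2.92 TPM) and Cd79a wholly below (0 to 0.0833 against 0.0913 to 0.103 TPM) in homozygous libraries; 0 of the 6 adipocyte markers were apart.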

Additional observations from a re-analysis of the deposited data

How the results depend on the processing

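The log2 differences of the Tbc1d1, Slc2a1 and Vamp2 gene sums stayed above 0 in all alternatives run: 1.29 to 2.33 for Tbc1d1 (16 alternatives), 0.19 to 0.65 for Slc2a1 (15) and 0.05 to 0.37 for Vamp2 (16). With coding rows only, Slc2a1 gave no value because too few libraries reached 1 TPM. The Sort1-202 isoform stayed below 0 (-1.71 to -0.72, 15 alternatives). No tested share passed in any of 10 alternatives. Where another setting changed a direction or a call, the cause was not tested.

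With array weights 810 genes passed, 1 of the 10 among them: Tbc1d1, at 2.04; Slc2a4 was then 0.038, Rab8a -0.24 and the isoforms Tbc1d4-201 -0.50 and Tbc1d4-209 -0.060. With quantile normalization Rab10 was -0.019, Rab8a -0.27, Stx4a -0.030, Rab10-201 -0.0038, Tbc1d4-201 -0.38 and Tbc1d4-209 -0.12. With median centring Rab10 was -0.12, Rab8a -0.27, Stx4a -0.10, Rab10-201 -0.086, Tbc1d4-201 -0.26 and Tbc1d4-209 -0.090. With mitochondrial transcripts left out Tbc1d4-201 was -0.021. With the slow-fibre covariate Slc2a4 was 0.17, Rab10 and Rab10-201 -0.022, Rab8a -0.30, Lnpep and Lnpep-201 -0.27, Slc2a4-201 0.14, Tbc1d4-201 -0.52, Tbc1d4-209 -0.38, Sort1-201 -0.20, Stx4a-202 0.40 and Stx4a-207 0.0056. With the length trend removed Rab10 was -0.15, Rab8a -0.23, Rab10-201 -0.11, Tbc1d4-201 -0.27, Sort1-201 -0.082 and Tbc1d4-209 -0.19. With coding rows only Tbc1d4 was 0.077 and Sort1 0.36.

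The 9 isoforms past the threshold became 3 with quantile normalization, 5 with median centring, 4 with a pseudocount of 0.1, 14 with array weights, 4 with the length trend removed and 0 under 3 further settings (the replicate block, no filter, the slow-fibre covariate). The 1 isoform of the 10 genes among them, Tbc1d1-204, became 0 with quantile normalization, no filter, the pseudocount of 0.1, the slow-fibre covariate, the replicate block and the length trend removed.

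Leaving out 1 library gave 0 to 2 genes past the threshold (2 without WT replicate 1 and 1 without WT replicate 2), 0 to 36 isoforms (36 without WT replicate 1) and 0 to 1 isoforms of the 10 genes. Directions then turned for Slc2a4 (-0.097 to 0.12, above 0 when WT replicate 3, homozygous replicate 2 or homozygous replicate 3 was left out), Tbc1d4 (-0.80 to 0.13, WT replicate 1) and Rab8a (-0.20 to 0.22, WT replicate 3). Among isoforms they turned for Slc2a4-201 (-0.18 to 0.066, WT replicate 3), Sort1-201 (-0.090 to 0.50, WT replicate 3), Stx4a-202 (-0.45 to 0.050, homozygous replicate 2 or WT replicate 3), Rab8a-202 (-0.34 to 0.017, WT replicate 1), Tbc1d4-201 (-0.57 to 0.34, homozygous replicate 1, homozygous replicate 3 or WT replicate 3) and Tbc1d4-209 (-0.12 to 0.60, homozygous replicate 2).

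Same-numbered libraries of the genotypes did not deviate together across genes (correlations -0.07 to 0.06 for the same number, -0.14 to 0.13 for other numbers). With 3 libraries per group, and labels that do not name litters, this cannot tell whether the numbers pair the mice. The standard error of the Tbc1d1 difference was 0.18 with the replicate block and 0.32 without it. With the replicate block 0 genes passed (Tbc1d1 adjusted p = 0.105) and Tbc1d1-204 had an adjusted p of 0.253 (limma). The exact p of the ratio of Slc2a1 to Slc2a4 was 0.5 and that of Tbc1d1 to Tbc1d4 0.25 (sign changes within pairs, for which 0.25 is the smallest p). Depth limits Slc2a1 (71.5 to 155 estimated fragments per library), Rab8a (105 to 202) and Lnpep in WT replicate 3 (44.5).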
